A study of Rattus norvegicus with 10 samples.

Results

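The genes described here are 7 genes of the extracellular matrix and of fibrosis, out of 32623 genes in the count table of rat kidney: Tgfb1, Col1a1, Col1a2, Col3a1, Fn1, Vim and Acta2. They were taken by Ensembl identifier, and each was kept only if its chromosome in the table matched the one given for it; all 7 matched. All 7 had enough fragments to enter the test, which covered 15047 genes. Whole kidneys came from male rats of the outbred Sprague-Dawley strain, in a control group that drank freely (n = 5 animals) and in a dehydrated group from which water was withheld for 72 hours (3 days, n = 5 animals). Each animal gave 1 library of polyadenylated RNA, with 29454213 to 35898689 assigned fragments per library. The sources used here give neither the age nor the food intake of the animals. In whole-kidney RNA, fewer cells of a type and less RNA per cell cannot be told apart.

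Fibrosis is the build-up of extracellular matrix in a tissue. Transforming growth factor beta 1, encoded by Tgfb1, is a secreted cytokine that is stored in the matrix in a latent form and, once released, acts through receptor kinases and SMAD transcription factors to raise the transcription of matrix genes in fibroblasts and pericytes. Those cells secrete fibrillar collagens: type I collagen, assembled from the chains encoded by Col1a1 and Col1a2, and type III collagen, encoded by Col3a1. They also deposit fibronectin (Fn1), a glycoprotein that links collagens to integrins on the cell surface. Vimentin (Vim), an intermediate filament protein of mesenchymal and endothelial cells that injured tubule cells can also make, and smooth muscle alpha-actin (Acta2), which belongs to the contractile apparatus of vascular smooth muscle and of myofibroblasts, are widely used as signs of a fibrotic response in the kidney.

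The proximal promoters of 3 of the genes are shown because they held matches to the promoter motifs searched for, and because Acta2 and Vim had the smallest p-values of the 7. The RefSeq promoter table (assembly GRCr8, which is not the build of the counts) held 4 of the 7 genes, Acta2, Col1a2, Tgfb1 and Vim. Capitals mark matches to CCAAT on either strand (read as ATTGG on the other), to TATAAA or TATATA on either strand, and to a CArG box, the element bound by serum response factor, with at least 5 of its 6 core bases A or T. Sequences run 5′ to 3′ on the strand of the gene.
Acta2 (GRCr8 chr1:241172534-241172643, minus strand, 140 to 31 bases before the annotated start): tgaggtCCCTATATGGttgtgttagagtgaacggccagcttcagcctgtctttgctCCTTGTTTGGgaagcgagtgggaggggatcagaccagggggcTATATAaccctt
Vim (GRCr8 chr17:81577101-81577190, plus strand, 160 to 71 bases before the annotated start): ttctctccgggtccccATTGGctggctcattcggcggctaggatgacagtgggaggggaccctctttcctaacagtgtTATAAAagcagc
Col1a2 (GRCr8 chr4:33518317-33518406, plus strand, 240 to 151 bases before the annotated start): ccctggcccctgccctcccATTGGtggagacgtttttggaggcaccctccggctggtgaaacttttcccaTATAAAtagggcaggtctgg

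In the 250 bases before the start, Acta2 held 2 such CArG boxes, 134 and 84 bases before it, each with a single C or G in the core. Tgfb1 held 1 (CCACTTTTGG, 104 bases before the start), and Vim and Col1a2 held none. Among 27457 rat genes in the table, 7.97% held at least 1 such box in the same window, 34.3% held CCAAT on either strand, 13.1% TATAAA and 5.44% TATATA. Vim and Col1a2 each held an inverted CCAAT followed by TATAAA, while Acta2 held TATATA and Tgfb1 neither TATA form. The CCAAT and TATAAA matches lay 144 and 82 bases before the annotated start in Vim, and 221 and 170 in Col1a2. The share of genes with both motifs in this order was not counted. No searched motifs overlapped. These matches describe the letters only. Whether they are working elements was not tested, and binding was not measured.

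None of the 7 matrix and fibrosis genes passed the test for a difference between dehydrated and control kidneys. Of the 15047 genes tested, 8.47% were called (edgeR's quasi-likelihood test, Benjamini-Hochberg adjusted p below 0.05), 4.7% higher and 3.77% lower, against 0 of 7 here. At an adjusted p below 0.1 edgeR called 12.2% of all tested genes and again 0 of the 7. The 5 dehydrated kidneys lay wholly above or wholly below the 5 controls for 7.87% of all tested genes and for 0 of the 7. At an adjusted p below 0.05, DESeq2 called 0 of the 7 and 7.82% of the 21311 genes it fitted, and limma voom called 0 of the 7 and 8.24% of 15047. At an adjusted p below 0.1, DESeq2 called Vim and Acta2 higher, with 5.45% of its genes called in that direction. At an unadjusted p below 0.05 there were 2 of 7, Vim and Acta2, both with higher mean levels after water restriction. Of all tested genes, 21.4% had such a p in either direction and 11.1% with higher levels. At that level DESeq2 gave 3 of 7 (15.9% of its genes), with Vim and Acta2 higher and Col3a1 lower (log2 fold change -0.30). With limma voom there were 2 of 7 (21.2%). The 3 collagen genes had estimates below 0 and the other 4 genes had estimates above 0. The median log2 fold change was 0.12 over the 7 genes and -0.0047 over all tested genes, and the median absolute value was 0.23 against 0.099. The 7 genes were picked with earlier results of these libraries known, so these counts and medians are a description of the group.

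By level per exonic length, Vim stood highest and Tgfb1 lowest in both groups. In TPM, which scale counts by exonic length and by the total of the library, control kidneys had 57.1 ± 8.12 for Vim, 50.3 ± 13.4 for Col3a1, 35.6 ± 4.56 for Acta2, 20.1 ± 5.22 for Fn1, 14.03 ± 5.08 for Col1a1, 10.7 ± 2.44 for Col1a2 and 8.19 ± 1.27 for Tgfb1 (mean ± SD, n = 5). Vim thus lay above 81.0% of the tested genes and Tgfb1 above 36.7% of them. Dehydrated kidneys had 67.5 ± 6.08 TPM for Vim, 43.0 ± 5.63 for Acta2, 41.3 ± 4.43 for Col3a1, 23.6 ± 4.44 for Fn1, 11.3 ± 1.39 for Col1a1, 9.26 ± 0.901 for Col1a2 and 8.95 ± 0.735 for Tgfb1 (n = 5). Because all genes were measured in the same libraries, their order can be read within each kidney. Col3a1 exceeded Acta2 in all 5 control kidneys, and in the dehydrated group in 2 of 5, so the order of these genes was uniform in controls and mixed after water restriction; whether the groups differ in it was not tested. Vim exceeded Col3a1 in 4 of 5 control kidneys and in all 5 dehydrated ones. Acta2 exceeded Fn1, Fn1 exceeded Col1a1 and Col1a1 exceeded Col1a2 in all 5 kidneys of each group. Col1a2 exceeded Tgfb1 in all 5 control kidneys but in 3 of 5 dehydrated ones, where the levels of these genes were not set apart by the spread between animals.

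**Figure D1:**
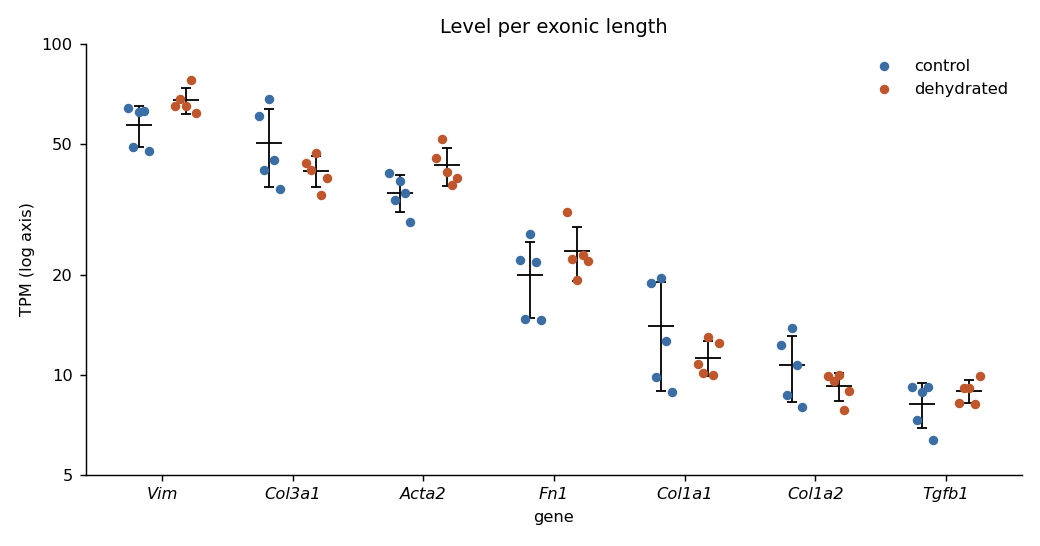
Level of each gene in TPM (vertical log axis) by gene (horizontal axis), control in blue and dehydrated in orange; points are libraries, bars the group mean and whiskers the SD (n = 5). Vim is highest and Tgfb1 lowest in both groups, at 57.1 and 8.19 TPM in control kidneys.

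Tgfb1, the cytokine of the group, differed least between the groups. The gene (ENSRNOG00000020652, Rnor_6.0 chromosome 1, 82480195 to 82497199, plus strand, 7 annotated exon ranges) had 11.6, 9.58, 11.2, 11.2 and 8.37 CPM (counts scaled by library size) in control replicates 2, 3, 4, 5 and 6. Dehydrated replicates 1, 2, 4, 5 and 6 had 9.72, 11.6, 11.8, 10.2 and 13.1 CPM. The groups overlapped: 3 dehydrated kidneys stood above the highest control, and the other 2 lay inside the control range. Means were 10.4 ± 1.37 and 11.3 ± 1.36 CPM (SD, n = 5), and the log2 fold change was 0.12 with a 95% interval of -0.12 to 0.35 (edgeR adjusted p = 0.615). In percent of the control level, the interval runs from -7.73% to 27.3%. Both extremes came from the replicates numbered 6, whose library names carry the letter of the other group; without these 2 libraries the estimate was -0.013.

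Col1a1, the gene of the alpha 1 chain of type I collagen, had the widest interval of the 7. The gene (ENSRNOG00000003897, Rnor_6.0 chromosome 10, 82745801 to 82762789, plus strand, 51 exon ranges) had 65.3, 35.1, 67.5, 42.3 and 31.7 CPM in control replicates 2, 3, 4, 5 and 6. Dehydrated replicates 1, 2, 4, 5 and 6 had 34.6, 35.1, 45.6, 33.8 and 44.8 CPM. Control replicates 2 and 4 stood well above all other kidneys, and the 5 dehydrated kidneys lay within the range of the controls. Control kidneys averaged 48.4 ± 16.9 CPM and dehydrated ones 38.8 ± 5.91 CPM (SD, n = 5), with a log2 fold change of -0.32 and a 95% interval of -0.74 to 0.098 (edgeR adjusted p = 0.382).

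Col1a2 encodes the alpha 2 chain that joins the product of Col1a1 in the type I fibre. It lies at Rnor_6.0 chromosome 4, 31534225 to 31569151, on the plus strand (ENSRNOG00000011292, 54 exon ranges). Control replicates 2, 3, 4, 5 and 6 had 32.4, 23.8, 36.5, 27.4 and 21.98 CPM, and dehydrated replicates 1, 2, 4, 5 and 6 had 24.5, 25.4, 27.0, 20.4 and 24.6 CPM. All 5 dehydrated kidneys lay below the control median, but 4 of them were inside the control range. The log2 fold change was -0.23 with a 95% interval of -0.50 to 0.045 (edgeR adjusted p = 0.331), from means of 28.4 ± 6.02 and 24.4 ± 2.42 CPM (SD, n = 5).

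Col3a1, the type III collagen of reticular fibres around tubules and vessels, was the most abundant of the 3 collagen genes per length. The gene (ENSRNOG00000003357, Rnor_6.0 chromosome 9, 52023295 to 52059217, plus strand, 51 exon ranges) had 170, 122, 191, 122 and 107 CPM in control replicates 2, 3, 4, 5 and 6. In dehydrated replicates 1, 2, 4, 5 and 6 it had 114, 118, 134, 97.0 and 116 CPM. As with the type I genes, control replicates 2 and 4 were the highest, and 4 of 5 dehydrated kidneys lay below the control median with the groups overlapping. Means were 142 ± 36.4 and 116 ± 13.1 CPM (SD, n = 5), and the log2 fold change was -0.30 with a 95% interval of -0.61 to 0.011 (edgeR adjusted p = 0.255, unadjusted p = 0.058). In percent of the control level, that is -34.4% to 0.772%. Single controls moved the collagen estimates both ways, with no call in any case. Without control replicate 4 they were -0.17 for Col1a1, -0.12 for Col1a2 and -0.16 for Col3a1, and without control replicate 2 the Col1a1 estimate was -0.19. Without control replicate 6 they were -0.44, -0.31 and -0.39, and without both libraries numbered 6 Col1a1 stood at -0.50.

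Fn1, the fibronectin gene, had estimates on the other side of 0 from the collagens. It is the longest of the 7 by exonic length (ENSRNOG00000014288, Rnor_6.0 chromosome 9, 78900103 to 78969078, minus strand, 48 exon ranges, 8406 bp). Control replicates 2, 3, 4, 5 and 6 had 110, 76.0, 132, 106 and 75.5 CPM, and dehydrated replicates 1, 2, 4, 5 and 6 had 144, 112, 97.8, 113 and 115 CPM. Dehydrated replicate 1 had the highest value of all 10 kidneys and control replicates 3 and 6 the lowest, with the other kidneys between 97.8 and 132 CPM in both groups. Its log2 fold change was 0.22 with a 95% interval of -0.097 to 0.53 (edgeR adjusted p = 0.442), from means of 99.9 ± 24.1 and 116 ± 16.97 CPM (SD, n = 5). The estimate was 0.13 without dehydrated replicate 1 and also without control replicate 6, and 0.34 without control replicate 4, with no call in these fits.

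Vim, the vimentin gene, had the smallest p of the 7 and did not pass after adjustment. The gene (ENSRNOG00000018087, Rnor_6.0 chromosome 17, 80882666 to 80891212, plus strand, 9 exon ranges) had 69.9, 55.6, 68.1, 66.6 and 54.0 CPM in control replicates 2, 3, 4, 5 and 6. Dehydrated replicates 1, 2, 4, 5 and 6 had 66.1, 75.1, 72.3, 83.8 and 71.0 CPM. Of the 5 dehydrated kidneys, 4 stood above the highest control and replicate 1 lay among the controls. Means were 62.8 ± 7.45 and 73.7 ± 6.51 CPM (SD, n = 5), and the log2 fold change was 0.23 with a 95% interval of 0.047 to 0.41 for this gene alone (edgeR adjusted p = 0.124, unadjusted p = 0.017).

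Acta2, the smooth muscle alpha-actin gene, gave nearly the same result as Vim. It lies at Rnor_6.0 chromosome 1, 252537615 to 252550394, on the minus strand (ENSRNOG00000058039, 10 exon ranges). Control replicates 2, 3, 4, 5 and 6 had 33.5, 28.7, 31.6, 28.3 and 24.8 CPM, and dehydrated replicates 1, 2, 4, 5 and 6 had 34.7, 42.6, 34.2, 30.4 and 33.7 CPM. All 5 dehydrated kidneys lay above the control median and 4 of them above the highest control, with replicate 5 inside the control range. Means were 29.4 ± 3.34 and 35.1 ± 4.49 CPM (SD, n = 5), and the log2 fold change was 0.26 with a 95% interval of 0.053 to 0.46 for this gene alone (edgeR adjusted p = 0.125, unadjusted p = 0.018). Actin genes are alike in sequence, so fragments shared with other actins could be lost or misplaced, and the level of Acta2 is uncertain to that extent. In the authors' deposited table, which holds their own DESeq2 comparison, the adjusted p was 0.089 for both Vim and Acta2. The adjusted p in the authors' deposited table was 0.198 for Col3a1, 0.326 for Col1a2, 0.417 for Fn1, 0.514 for Col1a1 and 0.651 for Tgfb1. With the libraries numbered 6 exchanged between the groups, the edgeR log2 fold changes were 0.085 for Vim and 0.097 for Acta2, and without both libraries they were 0.19 and 0.21.

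**Figure D2:**
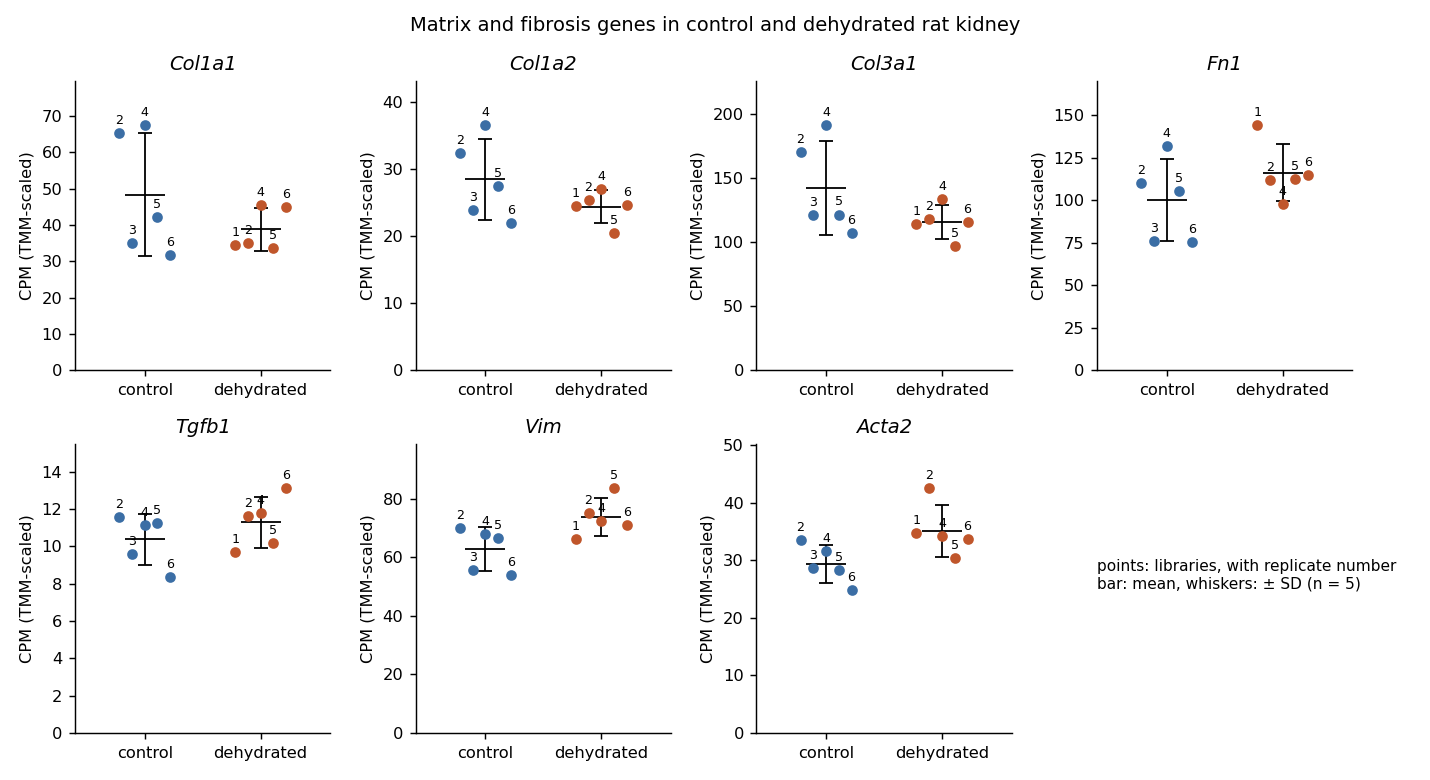
CPM of each gene (vertical axes from 0) in control (blue) and dehydrated (orange) kidneys; points are libraries marked with their replicate number, bars the mean and whiskers the SD (n = 5). Control replicates 2 and 4 are the highest for the 3 collagen genes, and 4 of 5 dehydrated kidneys lie above every control for Vim and for Acta2.

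The plot of estimates and intervals sets the 7 genes side by side. The intervals of the 3 collagen genes, Fn1 and Tgfb1 include 0, and those of Vim and Acta2, which are not adjusted for the number of genes tested, do not. As a difference from the control level, the lowest bound of the 7 intervals is -40.2% (Col1a1) and the highest is 44.7% (Fn1). A 2-fold change in either direction thus lies outside all 7 intervals.

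**Figure D3:**
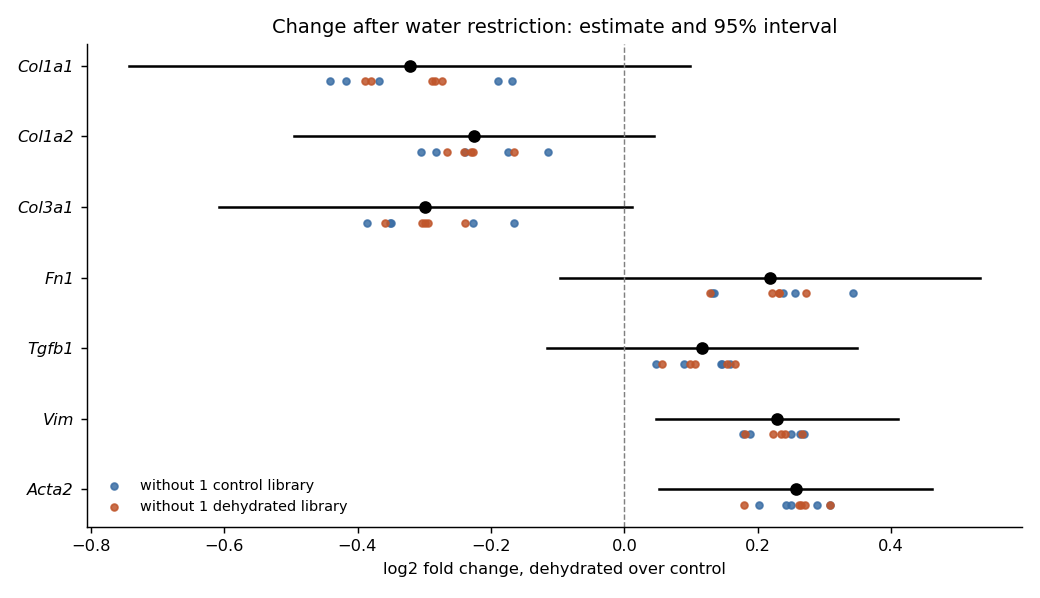
Log2 fold change, dehydrated over control (horizontal axis), for each gene (vertical axis): black points with lines are the edgeR estimate with its 95% interval, and small points below are the estimates without 1 control (blue) or 1 dehydrated (orange) library. The collagen intervals end above 0, at 0.098 for Col1a1, 0.045 for Col1a2 and 0.011 for Col3a1, and no leave-one-out estimate crosses 0.

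Control kidneys differed among themselves in these genes more than most genes of like abundance did. For Col1a1 the SD of log2 CPM among the 5 control kidneys was 0.50, against a median of 0.099 over the 500 tested genes nearest in level, and 99.8% of those genes varied less. For Col3a1 the control SD was 0.36 (98.8% of the nearest genes varied less), for Fn1 0.35 (98.4%) and for Col1a2 0.30 (96.6%). Vim (89.2%), Acta2 (84.8%) and Tgfb1 (71.6%) stood less far out. Among dehydrated kidneys the SD was 0.22 for Col1a1 (94.6%), 0.17 for Col3a1 (86.0%), 0.20 for Fn1 (93.6%) and 0.15 for Col1a2 (74.0%). The SD was smaller in the dehydrated group for 6 of the 7 genes, all but Acta2 (0.17 in control and 0.18 in dehydrated kidneys). The share of all tested genes with a smaller SD in that group was not counted. All 21 pairs of the 7 genes had a positive r between animals (below), so these are not 7 separate observations. Whether the groups differ in spread was not tested.

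The same control animals were high or low across the genes. In control replicates 2 and 4 all 7 genes lay above the control mean of log2 CPM, and in control replicates 3 and 6 all 7 lay below it. The share of all tested genes with the same pattern was not counted. Dehydrated kidneys had no library with all 7 genes on 1 side: from 1 gene (replicate 5) to 5 genes (replicate 2) lay above the group mean. Libraries of control replicates 3 and 6 had 31346899 and 29757442 fragments, the fewest of the controls. Those of control replicates 2, 4 and 5 had 33143569, 35153435 and 33966551, and in replicate 5 the 3 collagen genes lay below the control mean. Dehydrated replicate 4 had the fewest fragments of its group (29454213) and the highest collagen deviations (0.25 for Col1a1, 0.15 for Col1a2, 0.22 for Col3a1). Dehydrated replicate 5 had the most fragments (35898689) and the lowest collagen deviations (-0.19, -0.25 and -0.25). The part of depth in this pattern was not tested. Of all fragments, the 7 genes together held 0.042% ± 0.0095 in the control group and 0.042% ± 0.0017 in the dehydrated group (SD, n = 5). Control values ran from 0.032% to 0.054% and dehydrated ones from 0.040% to 0.044%, so the dehydrated kidneys lay within the range of the controls. This sum adds the lower dehydrated means of the 3 collagen genes to the higher ones of the other 4 genes. The 3 collagen genes held 0.0219% ± 0.00598 of fragments in the control group and 0.0179% ± 0.00192 in the dehydrated group. These shares were not tested.

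**Figure D4:**
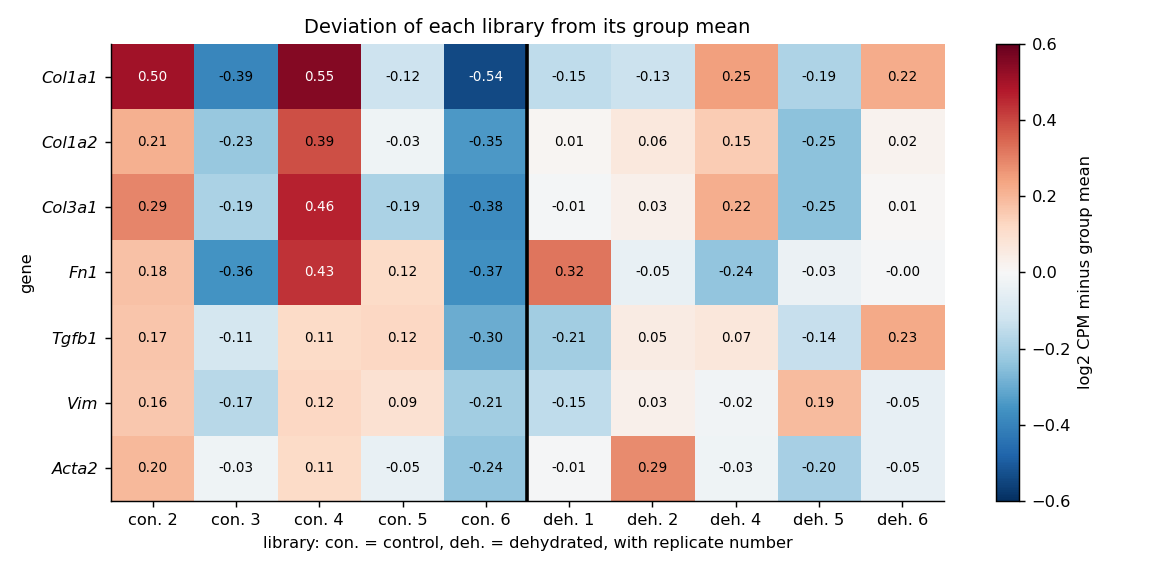
Log2 CPM of each gene (rows) in each library (columns) minus the mean of its group, in red above and in blue below, with a black line between the groups. Control replicates 2 and 4 are above and replicates 3 and 6 below their group mean for all 7 genes, from 0.55 to -0.54 for Col1a1.

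The 3 fibrillar collagen genes varied together between animals of the same group. With group means removed, Pearson's r over the 10 libraries was 0.97 for Col1a2 and Col3a1 (Spearman's rho 1.0), 0.93 for Col1a1 and Col3a1 (rho 0.93) and 0.91 for Col1a1 and Col1a2 (rho 0.93). Exact two-sided permutation within the groups gave p = 6.94e-05, the smallest that 14400 pairings allow, p = 0.00097 and p = 0.0037 for r. Adjusted over the 21 pairs of the 7 genes these were 0.0015, 0.010 and 0.026, and for rho 0.0015, 0.019 and 0.019. These 3 were the pairs of 21 that passed, and the other 18 pairs also had positive r, from 0.34 (Vim and Acta2) to 0.79 (Col1a1 and Tgfb1, rho 0.79, adjusted exact permutation p = 0.066 for r and 0.061 for rho). Control kidneys, which had the larger SD for the 3 collagen genes, weigh more in the r of these genes. No r was computed within a single group.

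The size of these r for Col1a1 rests in part on 2 controls. Without the 2 libraries farthest from the median, Col1a2 and Col3a1 kept r = 0.93 (adjusted exact permutation p = 0.029). The same step removed control replicates 2 and 4 for Col1a1, and r was then 0.70 with Col3a1 and 0.74 with Col1a2, with no pair of Col1a1 passing (adjusted exact permutation p = 0.335 for both). Leaving out single libraries kept r between 0.87 and 0.94 for Col1a1 and Col1a2, between 0.89 and 0.95 for Col1a1 and Col3a1 and between 0.94 and 0.99 for Col1a2 and Col3a1. The number of pairs that passed, with fewer pairings to draw on, was 1 without control replicate 5, where r of Col1a1 was 0.92 with Col1a2 and 0.93 with Col3a1, and 1 without control replicate 6, where they were 0.88 and 0.90. It was 5 without dehydrated replicate 2. Col1a2 and Col3a1 passed in each of the 10 sets that left out 1 library. All genes share the depth and the scaling of a library, which can add to each r.

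Among the 15046 other tested genes ranked by r with Col1a1, Col3a1 had rank 1 and Col1a2 rank 3, and 0.658% of genes had an r above 0.8. In that order Tgfb1 had rank 120, Fn1 rank 712, Vim rank 835 and Acta2 rank 1271. The order depended on the collagen gene taken. By r with Col1a2, Acta2 had rank 288, Tgfb1 rank 325, Fn1 rank 382 and Vim rank 1846. By r with Col3a1, the ranks of the same genes were 304, 513, 655 and 1970. Acta2 had r = 0.73 with Col1a2 and 0.69 with Col3a1 (adjusted exact permutation p = 0.092 and 0.111). Fn1 had r = 0.70 with Col1a2, 0.63 with Col1a1 and 0.61 with Col3a1 (rho 0.58, 0.65 and 0.58; adjusted exact permutation p = 0.190, 0.229 and 0.229 for r and 0.297, 0.281 and 0.297 for rho). Its r with Col3a1 was 0.17 without the 2 farthest libraries, 0.36 without control replicate 4 and 0.79 without dehydrated replicate 4, so it depended on single animals. Whether it differs from the r among the collagens was not tested. Vim and Acta2, which had almost the same fold change, had the lowest r of the 21 pairs (0.34, rho 0.26, adjusted exact permutation p = 0.357 for r and 0.50 for rho). That value too depended on single animals: it was 0.74 without dehydrated replicate 5, 0.063 without control replicate 6 and 0.57 without the 2 farthest libraries. Their highest dehydrated kidneys were different ones, replicate 5 for Vim and replicate 2 for Acta2.

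**Figure D5:**
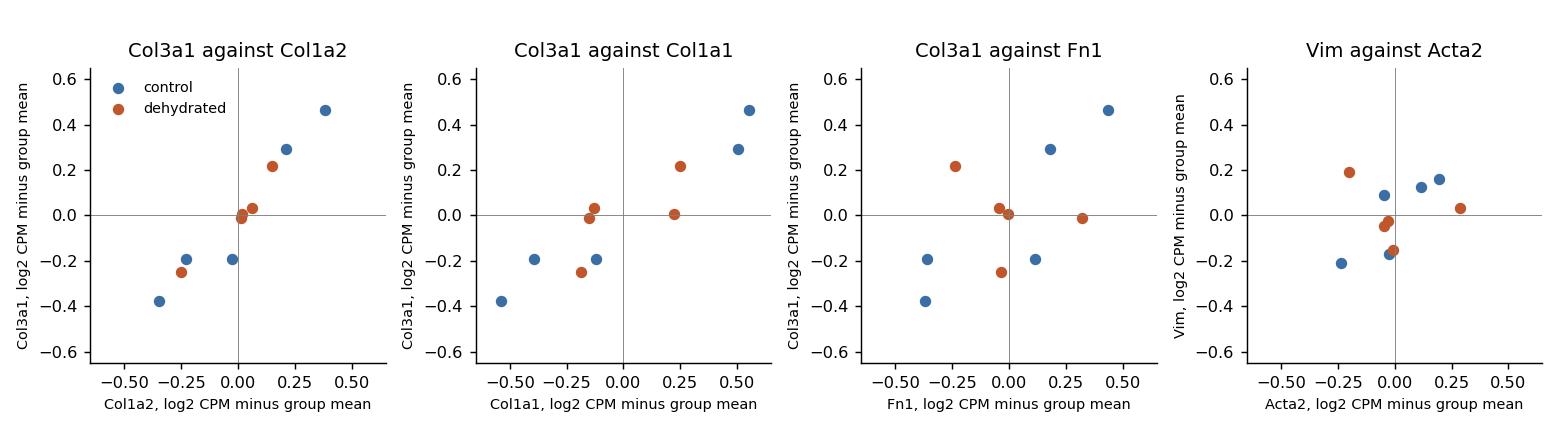
Log2 CPM minus the group mean for 4 pairs of genes, 1 point per library, control in blue and dehydrated in orange. Col1a2 and Col3a1 lie close to a line (r = 0.97), while r is 0.61 for Fn1 and Col3a1 and 0.34 for Acta2 and Vim.

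Ratios within a library compare the collagen chains without the scaling between libraries. The ratio of Col3a1 to Col1a2 in TPM averaged 4.67 ± 0.322 over control animals and 4.46 ± 0.122 over dehydrated animals (SD, n = 5), a narrow range of 4.16 to 4.93 over all 10 animals. Col1a1 to Col1a2 was 1.28 ± 0.196 and 1.22 ± 0.145, with the highest values in control replicates 2 (1.55) and 4 (1.42). For Fn1 to Col3a1, control animals averaged 0.401 ± 0.0543, from 0.355 to 0.493, and dehydrated animals 0.577 ± 0.116, from 0.414 to 0.714 (SD, n = 5). For this ratio 4 of the 5 dehydrated kidneys lay above all controls, and dehydrated replicate 4 lay inside the control range. These ratios of members were not tested.

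The genes most like the collagens and Acta2 over all 10 libraries can be given by identifier only, because the tables used here pair none of the other identifiers with symbols. Among 12543 other genes at 2 CPM or more on average, ENSRNOG00000052925 (Rnor_6.0 chromosome 4, 29529854 to 29564768, plus strand) was most like the mean profile of Col1a1, Col1a2 and Col3a1, with r = 0.95. Its levels were 30.5 ± 7.24 CPM (control) and 27.4 ± 4.35 CPM (dehydrated; SD, n = 5 each; log2 fold change -0.16, edgeR adjusted p = 0.632). ENSRNOG00000060350 (chromosome 4, 123307624 to 123453478, plus strand) followed with r = 0.90, at 182 ± 14.1 and 168 ± 6.17 CPM (edgeR adjusted p = 0.308). The gene closest to Acta2 was ENSRNOG00000043007 (chromosome 1, 101076898 to 101086198, minus strand, r = 0.93), which rose from 11.2 ± 1.05 to 13.9 ± 0.842 CPM (log2 fold change 0.30, edgeR adjusted p = 0.030). ENSRNOG00000007329 (chromosome 6, 93281408 to 93358840, plus strand) was second with r = 0.93, at 23.7 ± 1.12 and 26.7 ± 1.93 CPM (edgeR adjusted p = 0.128). These r are the highest of many and are descriptions over 10 libraries, with the treatment difference included.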

How the data were processed

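Polyadenylated RNA of whole kidney from 10 rats was analysed. Per the file headers, the authors trimmed paired-end reads, aligned them with Rsubread and counted fragments per gene on the reverse strand (setting 2) with featureCounts 1.6.2 and Ensembl release 103 of Rnor 6.0. For trimming and alignment, versions and settings were not found in the sources used here. The authors' deposited table gives log2 fold changes with their errors and p-values from DESeq2, which the submitters' processing notes name; its 10 columns of values per sample were not used. Gene symbols of the 7 genes came with the rule that chose them. The RefSeq table pairs 0 identifiers with symbols, so the planned lists of pathway genes and cell type markers were not counted, and the labelled tissue was not checked against markers.

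Groups follow the titles. Counts were tested in R 4.3.3 with edgeR 4.0.16 (TMM scaling, filterByExpr with minimum count 10 and minimum total 15, glmQLFit and glmQLFTest, no covariate, Benjamini-Hochberg over 15047 genes, called below 0.05). The SE was the absolute log2 fold change over the square root of F, and 95% intervals used the test's degrees of freedom. CPM were TMM-scaled; log2 CPM used a prior count of 2; TPM used all genes and the exonic length. Correlations used exact permutation within groups. Alternatives were DESeq2 1.42.0, limma 3.58.1, other scaling, filter and threshold, a replicate block and libraries left out or exchanged. All 7 genes were named whatever their values; the 2 genes most like the collagens and the 2 most like Acta2, by r among genes with at least 2 CPM, were added by rule. The fit and the permutation were tested on simulated data. The members, lists and windows of sequence were chosen with earlier results of these data known. The number of animals, 5 per group, limits the precision; ratios of counts between genes depend on the annotated lengths.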

Additional observations from a re-analysis of the deposited data

How the results depend on the processing

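None of the 7 genes was called, higher or lower, by edgeR under any of its alternatives, nor by DESeq2 or limma voom at an adjusted p below 0.05. DESeq2 with an adjusted p below 0.1, chosen after the data were seen, called 2 members higher (Vim and Acta2, adjusted p of 0.092 and 0.093) and 2162 of all genes (10.1% of the 21311 it fitted); edgeR at 0.1 called neither. Over the alternatives with the titled groups, the adjusted p ranged from 0.090 to 0.265 for Vim and from 0.081 to 0.284 for Acta2. Leaving out 1 library gave 1 to 5 members with an unadjusted p below 0.05, beside 18.3% to 22.7% of all genes, and 879 to 1382 genes called. The 5 were found without control replicate 6, beside 20.8% of all genes: the 3 collagen genes, lower, and Vim and Acta2, higher. There was 1 such member without dehydrated replicate 2 (18.8% of all genes) and without dehydrated replicate 5 (19.3%). Tgfb1 alone turned its sign, to -0.013 without both libraries numbered 6 and to -0.13 with these 2 exchanged between the groups. The exchange also took Vim to 0.085, Acta2 to 0.097 and Fn1 to 0.0081. It left 0 genes called by edgeR, and it mixes the treatments if the titles are right. With the replicate number as a block, over the 4 numbers that both groups share, 772 genes were called against 1275. In the block fit 4 members and 17.7% of all genes had an unadjusted p below 0.05, and 0 members were called. The Fn1 estimate was 0.069 against 0.22. The block fit left out control replicate 3 and dehydrated replicate 1, and no unblocked fit of the same libraries was run. Deviations of libraries with the same number had r of -0.054 to 0.14, with 1 of 4 above 0.1, so the numbers were not taken as pairs. Of the 21 gene pairs 3 passed; 1 passed without both libraries numbered 6 (r of the 3 collagen pairs 0.90 to 0.96), 1 without the 2 farthest libraries, and 1 to 5 when 1 library was left out. The cause of these shifts was not tested.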
